A study of Mus musculus with 48 samples.

Results

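The comparison described here sets skin of C3H/HeJ mice that received phosphate-buffered saline (PBS) by the intraperitoneal route (PBS ip, n = 4 arrays) against skin of sham mice (n = 4 arrays), all titled week 5. The 8 arrays were chosen by title from the 48 of the series, which covers prevention of alopecia areata in mice with inhibitors of the interleukin-15 (IL-15) pathway. PBS ip holds the arrays numbered 2 to 5 and sham those numbered 1 to 4. The array titled PBS ip number 1 was left out because its treatment label reads IL15. The labels give the weeks of treatment as 5/6, skin as the tissue and C3H/HeJ as the strain for every array. From what is known of the model, disease is transferred by grafting skin of affected mice. The labels name neither the graft nor what the sham mice received, nor the age or sex of the mice. They also do not say which area of skin was taken, or at what time of day.

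Alopecia areata is an autoimmune hair loss in which cytotoxic T cells gather around growing hair follicles. IL-15 sustains such T cells, and the interferon gamma they release makes skin cells present more antigen on major histocompatibility complex (MHC) class I molecules and secrete chemokines that draw in further T cells. Skin cells also keep a circadian clock. In it the activators Bmal1 (Arntl) and Clock bind E-box sequences and drive Per and Cry genes, whose proteins inhibit the activators, and the output factors Dbp, Tef and Hlf.

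Values are log2 signals, and 13648 genes were tested. Differences are PBS ip minus sham on the log2 scale ± the standard error (SE), and group means are given with their SD. A gene was called at a limma p-value, adjusted by Benjamini-Hochberg, under 0.05. The spread of each gene was estimated from 47 arrays in 13 groups. Limma called 4 genes, 0.0293% of those tested. The median difference over all genes was 0.00136, and 50.5% of genes had a positive difference. At an unadjusted p under 0.05, 355 genes were higher in PBS ip (2.60%) and 328 lower (2.40%). Together these are 683 genes, about the share that this cut passes when no gene differs. The 4 PBS ip arrays lay above all 4 sham arrays for 328 genes (2.40%) and below them for 245 genes (1.80%).

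Of the 8 arrays, the sham array numbered 4 stood apart in its hair genes and correlated with the other sham arrays at a mean of 0.953, where the other sham arrays had means of 0.976 and 0.977. The 75th percentile of the PBS ip array numbered 2 was 8.47, against 8.57 to 8.68 in the other 7 arrays. The 3' minus 5' difference of the actin control probe sets was 0.85 to 0.97 in PBS ip and 0.93 to 1.19 in sham, and that of the GAPDH control probe sets was 0.13 to 0.27 in PBS ip and 0.24 to 0.65 in sham. These measures of RNA quality thus leaned the same way as the groups, and their part in the results was not tested. Keratinocyte markers were high in every array, with Krt14 at 12.94 to 13.33 in PBS ip and 13.01 to 13.29 in sham. Skeletal muscle genes were high too, with Ckm at 13.23 to 13.78 in PBS ip and 13.20 to 13.61 in sham.

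The 4 called genes were Per2, Sectm1b and Sectm1a, which rose, and Leo1, which fell. Per2 (Entrez Gene 18627) encodes a period protein that inhibits the Bmal1 and Clock activators. Its signal was 7.72, 7.69, 7.93 and 7.83 in the PBS ip arrays, against 5.92, 6.20, 5.76 and 6.18 in the sham arrays. Every PBS ip array was thus more than 1 log2 unit above every sham array. Per2 rose by 1.78 ± 0.30 (3.42-fold, adjusted p = 0.0085), and by 1.83 without sham replicate 4 (adjusted p = 0.013). Per2 has 3 probe sets, and the other probe sets differed by 0.33 ± 0.17 and 0.57 ± 0.27. With quantile normalization the probe set of highest mean was another, and Per2 then differed by 0.58 (adjusted p = 0.991).

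Sectm1a and Sectm1b are relatives of human SECTM1, a protein known to bind the T cell receptor CD7. Sectm1b (Entrez Gene 58210) had 8.06, 7.83, 8.25 and 8.22 in PBS ip arrays and 7.04, 7.14, 7.34 and 7.42 in sham arrays. It rose by 0.86 ± 0.17 (adjusted p = 0.0421), and its other probe set differed by 0.56 ± 0.15. Sectm1a (Entrez Gene 209588) had 8.83, 8.81, 8.84 and 9.05 in PBS ip arrays and 8.05, 7.99, 8.38 and 8.24 in sham arrays, and rose by 0.72 ± 0.14 (adjusted p = 0.0421). The groups did not overlap for either gene. Without sham replicate 4 neither was called, at differences of 0.92 and 0.74 (adjusted p = 0.0552 and 0.0801). With the 11 grouped arrays of week 5 neither was called (adjusted p = 0.0569 for Sectm1b and 0.0542 for Sectm1a), and with the 8 arrays alone both were (adjusted p = 0.0496). Cd7 itself differed by 0.15 ± 0.14 (adjusted p = 1), with 7.96 to 8.33 in PBS ip and 7.88 to 8.29 in sham.

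Leo1 (Entrez Gene 235497) encodes a subunit of the PAF1 complex, which travels with RNA polymerase II during transcription. Its signal was 8.14, 8.35, 8.17 and 8.11 in PBS ip arrays, against 8.45, 8.67, 8.66 and 8.64 in sham arrays. The groups did not overlap, and sham replicate 1 was the closest to PBS ip. Leo1 fell by 0.41 ± 0.07 (adjusted p = 0.0145), and its adjusted p was 0.0552 without sham replicate 4. It was not called with the 8 arrays fitted alone (adjusted p = 0.167) or with the 11 grouped arrays of week 5 (adjusted p = 0.0827). The other 5 PAF1 complex genes, Paf1, Ctr9, Cdc73, Rtf1 and Wdr61, differed by -0.16 to 0.10 and none was called.

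**Figure D1:**
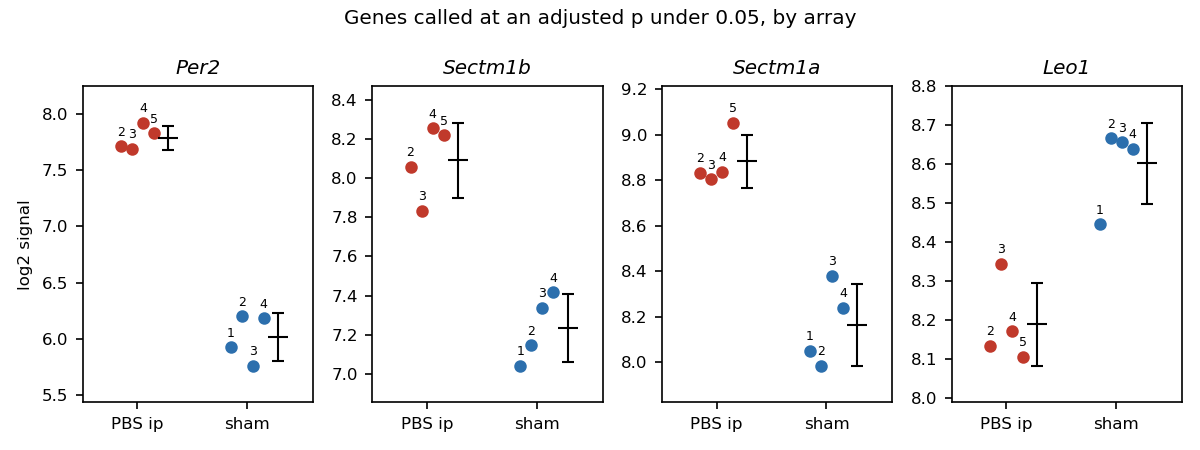
Log2 signal (y axis) of the 4 called genes in each array, PBS ip (red) left of sham (blue). Points are arrays with their replicate numbers, and bars are the mean ± SD of 4 arrays. Per2, Sectm1b and Sectm1a have all PBS ip arrays above all sham arrays, and Leo1 has all of them below.

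The clock genes separated the groups beyond Per2. The labels do not give the time of day of sampling in either group, and its part in these differences was not tested. The list of the period arm holds genes known to be driven by Bmal1 and Clock. All 11 members were tested and all were positive, with a median of 0.75. Of the 11, 9 had an unadjusted p under 0.05 and 9 did not overlap between the groups, against 2.60% and 2.40% of all genes. Per2 was the member called. Dbp, an activator at D-box sequences, had 12.00, 11.92, 11.88 and 12.13 in PBS ip arrays and 10.77, 10.73, 10.37 and 10.75 in sham arrays. The arrays within each group lay close together relative to the gap. The difference of 1.33 ± 0.48 did not pass (adjusted p = 0.71), since the SE comes from the spread of Dbp over 47 arrays. With the 8 arrays fitted alone its SE was 0.103 and its adjusted p 0.00323. Its other probe set differed by 1.47 ± 0.51.

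Per3, the third period gene, had 9.30, 9.26, 9.52 and 9.44 in PBS ip arrays and 8.10, 8.14, 7.70 and 8.42 in sham arrays, a difference of 1.29 ± 0.36 (adjusted p = 0.458) without overlap. Its other 5 probe sets differed by 0.13 to 0.68, and none of those had an unadjusted p under 0.05. Per1 differed by 1.01 ± 0.40 (adjusted p = 0.84). The D-box factors Tef and Hlf differed by 0.77 ± 0.23 (adjusted p = 0.522) and 0.75 ± 0.20 (adjusted p = 0.445). Ciart, a repressor of the clock, differed by 0.47 ± 0.20, the repressor Nr1d2 by 0.40 ± 0.18 and the inhibitor Cry2 by 0.32 ± 0.12. For each of these 7 genes the groups did not overlap. Nr1d1, which encodes the Rev-erb alpha repressor, differed by 0.13 ± 0.20 and Bhlhe41, another repressor, by 0.02 ± 0.15, both with overlap.

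Of the 6 tested members of the Bmal1 arm, 4 were negative, with a median of -0.30, but the median over every probe set of these genes was 0.07. Among the 6, 3 were lower without overlap and at an unadjusted p under 0.05, against 1.80% and 2.40% of all genes. These were the activators Arntl, Npas2 and Clock. Arntl, which encodes Bmal1, had 8.55, 8.89, 8.89 and 8.67 in PBS ip arrays, against 9.49, 9.53, 9.68 and 9.39 in sham arrays, a difference of -0.78 ± 0.21 (adjusted p = 0.445). Npas2, a relative of Clock that also pairs with Bmal1, had 6.52, 6.52, 6.71 and 6.60 in PBS ip arrays and 7.30, 7.51, 7.23 and 7.76 in sham arrays, a difference of -0.86 ± 0.28 (adjusted p = 0.583). All PBS ip arrays were the lower ones for both genes. Clock differed by -0.39 ± 0.12 (adjusted p = 0.549), and its other 3 probe sets by -0.29 to -0.39. The second probe sets of Arntl and Npas2, both dimmer, differed by 0.01 ± 0.10 and -0.10 ± 0.15. The inhibitor Cry1 differed by 0.29 ± 0.12 in the other direction, and the repressor Nfil3 and the activator Rora differed by -0.22 ± 0.37 and 0.10 ± 0.14.

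How many clock genes passed depended on the arrays that entered the fit. With the 8 arrays alone, limma called 20 genes (0.147%), among them Per2, Per3, Dbp, Tef and Hlf as higher and Arntl and Npas2 as lower. With the 11 grouped arrays of week 5 it called 17 genes (0.125%), among them 6 of the period arm and Arntl. Without sham replicate 4 and with all other groups kept, it called 2 genes (0.0147%), Per2 and Rhebl1, and the median of the period arm was 0.75. Rhebl1, a Rheb-like GTPase gene named here after its values were seen, differed by 0.55 ± 0.11 with all arrays (adjusted p = 0.0591) and by 0.67 without sham replicate 4 (adjusted p = 0.0072).

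**Figure D2:**
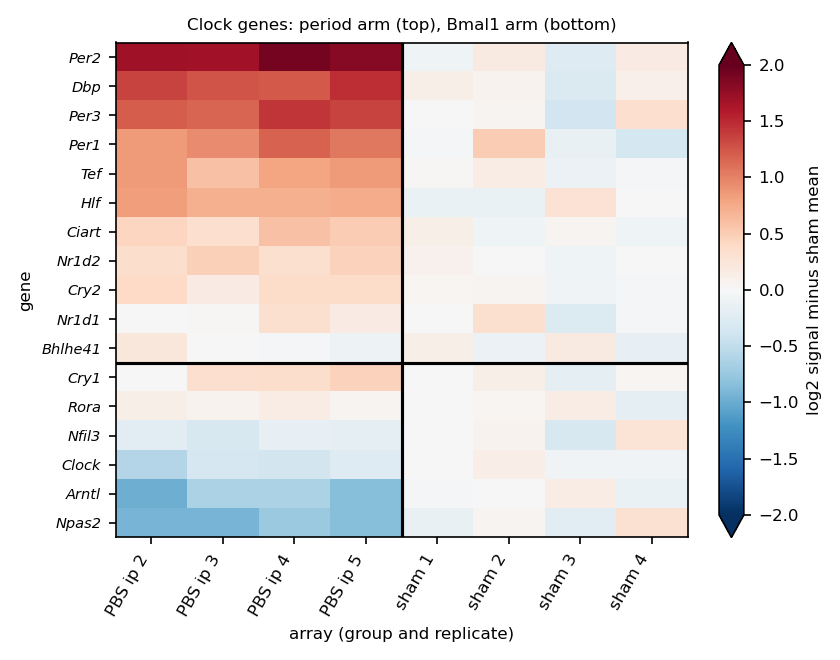
Log2 signal minus the sham mean of each gene (colour, from -2 to 2) for the clock genes (rows) in the 8 arrays (columns, PBS ip left of sham). Rows of the period arm are above the line and those of the Bmal1 arm below it. Per2, Dbp and Per3 are the members with the largest positive differences, 1.78, 1.33 and 1.29, and Npas2 and Arntl those with the largest negative ones, -0.86 and -0.78.

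Promoter sequences of 150 bases before the gene start are printed for Ciart and Tef. Both are members of the period arm without overlap, and were chosen because these windows hold E-box letters. Sequences are from RefSeq on build GRCm38.p6, read 5′ to 3′ on the strand of the gene, and capitals mark the letters CACGTG. Tef has more than 1 gene start in the table, and the sequence before the start at the lower coordinate is shown.
Ciart, chr3:95882229-95882378, minus strand: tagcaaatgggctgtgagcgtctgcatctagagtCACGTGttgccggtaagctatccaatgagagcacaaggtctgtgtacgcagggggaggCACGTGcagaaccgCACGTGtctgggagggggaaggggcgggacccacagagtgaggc
Tef, chr15:81802523-81802672, plus strand: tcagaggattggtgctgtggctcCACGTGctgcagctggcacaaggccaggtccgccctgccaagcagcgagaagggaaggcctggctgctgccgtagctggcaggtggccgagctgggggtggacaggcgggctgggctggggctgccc
Over windows of 250 bases before to 50 after the start, searched on both strands, 4 of 10 period arm genes with a promoter entry held CACGTG (40%), against 8.09% of the 27025 genes in the promoter table. Those were Ciart, Tef, Per1 and Bhlhe41, of which Bhlhe41 overlapped between the groups. Dbp, Per3, Hlf, Cry2 and Nr1d2, which did not overlap, held none, and Per2 had no entry. In the Bmal1 arm 1 of 6 held it, Cry1. The match describes these letters and does not show binding. The period arm consists of genes known to be driven by Bmal1 and Clock, so its share describes the list and not this experiment.

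Genes known to be induced by type I interferons were higher in PBS ip skin as a group, and none was called. Of the 34 listed, 31 were tested and all 31 differences were positive, between 0.03 and 1.44, with a median of 0.48. Of the 31, 20 had an unadjusted p under 0.05 and 20 did not overlap between the groups, against 2.60% and 2.40% of all genes. Averaged over the members, the list stood at 8.52, 8.27, 8.10 and 8.03 in the PBS ip arrays and at 7.63, 7.51, 7.63 and 7.80 in the sham arrays. All PBS ip arrays were thus above all sham arrays. Without sham replicate 4 the median was 0.50, 20 members had an unadjusted p under 0.05 and 30 of 31 were positive.

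Ifit1, whose protein binds viral RNA, had 9.14, 8.0, 7.81 and 7.69 in PBS ip arrays and 6.73, 6.36, 6.66 and 7.13 in sham arrays, a difference of 1.44 ± 0.41 (adjusted p = 0.458). Its relative Ifit3 differed by 1.04 ± 0.36 (adjusted p = 0.664). Oasl2, an oligoadenylate synthetase-like gene, had 7.14, 6.77, 6.42 and 6.43 in PBS ip arrays and 5.29, 5.35, 5.44 and 5.97 in sham arrays, a difference of 1.18 ± 0.37 (adjusted p = 0.549). The highest sham array of Oasl2, replicate 4, still lay below the lowest PBS ip array. The Oasl2 sham values of 5.29 and 5.35 were under 5.43, the level called near background here. The helicase gene Ddx60 differed by 1.14 ± 0.33 (adjusted p = 0.515), Xaf1 by 0.93 ± 0.25 (adjusted p = 0.405) and Irf9, the DNA-binding subunit of the factor that type I interferons activate, by 0.57 ± 0.17 (adjusted p = 0.535). None of these 6 genes overlapped between the groups. For Ifit3 and Oasl2 this was a condition of being named, and for Ifit1 and Ddx60 it was among the grounds. At the other end Cmpk2 differed by 0.03 and turned to -0.04 without sham replicate 4. With the 8 arrays fitted alone, 2 of the 31 were called, Ifi44l and Dhx58, against 0.147% of all genes. With the 11 arrays of week 5 the calls were 4, Ifi44l, Dhx58, Oasl2 and Zbp1, against 0.125% of all genes. Without sham replicate 4 none was called.

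Genes of the interferon gamma response differed more, but mainly in PBS ip replicates 2 and 3. Of 21 listed, 16 were tested and all were positive, with a median of 0.77, and 8 had an unadjusted p under 0.05, against 2.60% of all genes. Only Irgm1 did not overlap between the groups, 1 of 16 members against 2.40% of all genes. The list averaged 10.08, 9.52, 8.19 and 8.44 in PBS ip arrays, against 8.24, 7.99, 8.12 and 8.54 in sham arrays. Replicates 4 and 5 of PBS ip thus lay within the range of sham. Iigp1, a GTPase that acts against intracellular microbes, had 12.93, 12.48, 9.24 and 9.62 in PBS ip arrays and 9.21, 8.66, 9.02 and 9.52 in sham arrays, a difference of 1.97 ± 0.64 (adjusted p = 0.583). Its groups overlapped, and its second probe set differed by 1.80 ± 0.62.

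The related GTPase gene Igtp had 12.59, 11.43, 9.02 and 9.27 in PBS ip arrays, against 9.0, 8.77, 8.87 and 9.18 in sham arrays (difference 1.62 ± 0.55, adjusted p = 0.662). Irgm2 differed by 1.57 ± 0.54 (adjusted p = 0.664). Irgm1 had 11.73, 10.51, 8.68 and 8.76 in PBS ip arrays, against 8.61, 8.63, 8.41 and 8.66 in sham arrays (difference 1.34 ± 0.43, adjusted p = 0.583). The lowest PBS ip array of Irgm1 was only just above the highest sham array. The chemokine genes Cxcl9 and Cxcl10 differed by 0.79 ± 0.64 and 0.33 ± 0.41, and sham replicate 4 lay above PBS ip replicates 4 and 5 for Cxcl9 and above all PBS ip arrays for Cxcl10. The inhibitor Socs1 differed by 0.05. With PBS ip replicates 2 and 3 left out together, an alternative chosen after seeing the data, the median of the interferon gamma list was 0.147. PBS ip replicate 2 is also the array with the lowest 75th percentile, and the part of that in this result was not tested. Without it the median was 0.40, and without sham replicate 4 it was 0.91.

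**Figure D3:**
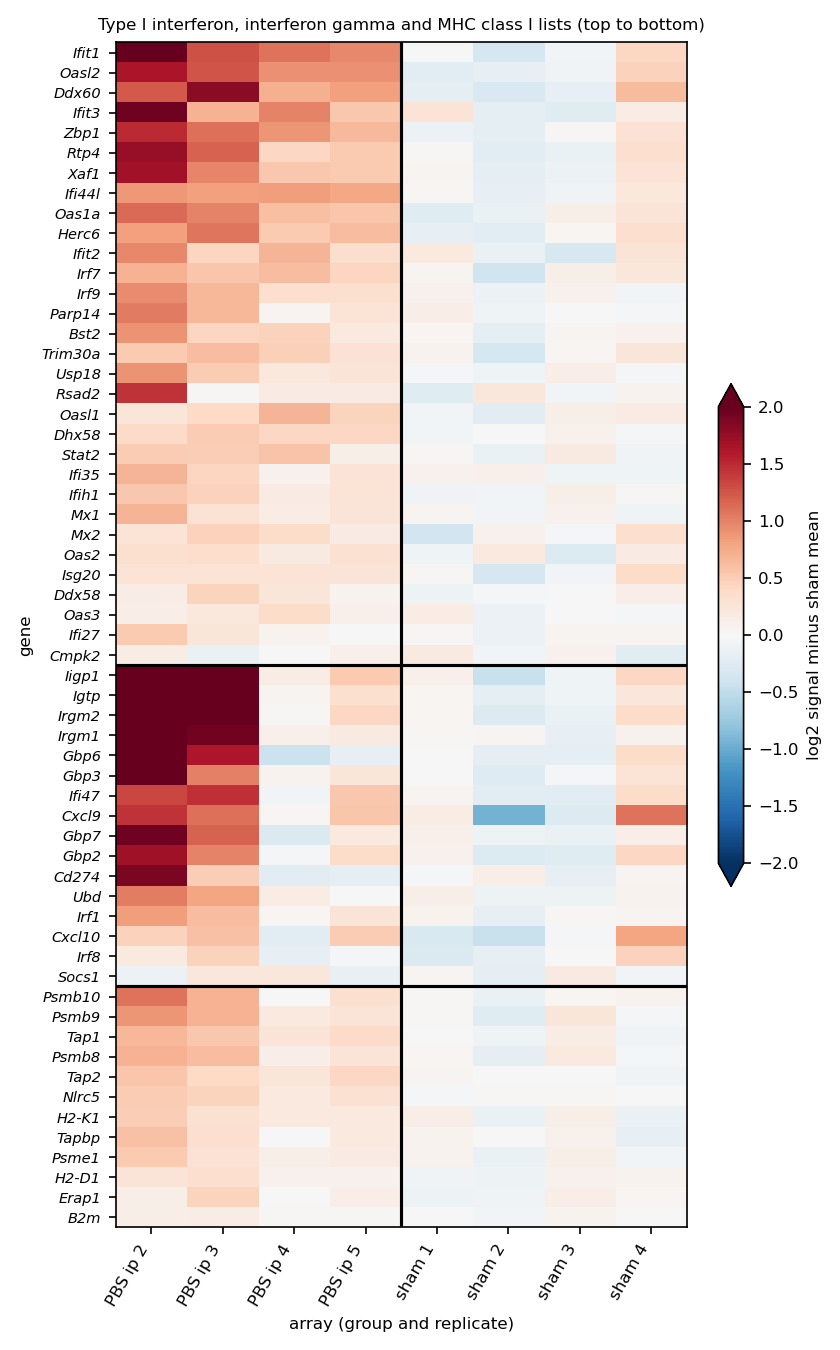
Log2 signal minus the sham mean of each gene (colour, limited to -2 to 2) for the tested members (rows) of the type I interferon, interferon gamma and MHC class I lists, in the 8 arrays (columns, PBS ip left of sham). Type I members are positive in most tiles of the PBS ip columns. Iigp1, Igtp, Irgm2 and Irgm1 are strongly positive in PBS ip replicates 2 and 3 and near the sham level in replicates 4 and 5.

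Promoters of 4 interferon genes are printed because these genes are among those of largest difference in both interferon lists and their windows hold interferon motifs. Capitals mark GAAANNGAA, the core of the interferon-stimulated response element, on either strand. Matches of the same motif can overlap, as in Ifit1 and Irgm1. The 150 bases before the gene start are shown as above.
Ifit1, chr19:34640739-34640888, plus strand: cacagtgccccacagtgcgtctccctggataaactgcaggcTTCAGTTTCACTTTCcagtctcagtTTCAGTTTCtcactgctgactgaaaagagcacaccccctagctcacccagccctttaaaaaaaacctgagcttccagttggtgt
Ddx60, chr8:61927937-61928086, plus strand: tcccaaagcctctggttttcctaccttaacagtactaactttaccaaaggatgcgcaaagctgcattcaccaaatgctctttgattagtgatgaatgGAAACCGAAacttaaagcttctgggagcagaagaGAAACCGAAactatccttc
Irgm1, chr11:48871421-48871570, minus strand: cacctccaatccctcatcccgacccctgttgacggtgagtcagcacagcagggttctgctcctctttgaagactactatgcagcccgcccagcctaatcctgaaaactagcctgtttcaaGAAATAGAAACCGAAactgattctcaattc
Igtp, chr11:58199406-58199555, plus strand: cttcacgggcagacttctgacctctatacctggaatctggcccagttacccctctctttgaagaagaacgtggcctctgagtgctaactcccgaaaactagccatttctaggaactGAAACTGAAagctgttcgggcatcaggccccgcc
In Igtp the core starts 34 bases before the gene start. Over the whole 300-base windows, 12 of 22 type I genes with an entry held GAAANNGAA (54.5%) and 10 of 14 interferon gamma genes did (71.4%), against 9.76% of all genes in the table. These lists consist of known interferon targets, so the shares describe the lists and not this experiment.

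MHC class I presentation genes also lay higher in PBS ip skin without any being called. All 12 tested members were positive with a median of 0.33, 8 had an unadjusted p under 0.05, and 5 did not overlap between the groups, against 2.60% and 2.40% of all genes. Over every probe set of these genes the median was 0.196. The genes of the peptide transporter, Tap2 and Tap1, differed by 0.40 ± 0.14 (adjusted p = 0.685) and 0.46 ± 0.16 (adjusted p = 0.701). Tap2 had 9.85, 9.69, 9.52 and 9.70 in PBS ip arrays and 9.35, 9.30, 9.29 and 9.21 in sham arrays, with no overlap. The other 3 probe sets of Tap1 differed by -0.05 to 0.03. The immunoproteasome genes Psmb10 and Psmb9 differed by 0.53 ± 0.20 and 0.51 ± 0.22 with overlap. B2m, the light chain of the class I molecule, differed by 0.08. Without sham replicate 4 the median was 0.31 and 5 members had an unadjusted p under 0.05. Without PBS ip replicates 2 and 3 the median was 0.177. The 9 tested MHC class II genes had a median of 0.05, with none at an unadjusted p under 0.05.

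**Figure D4:**
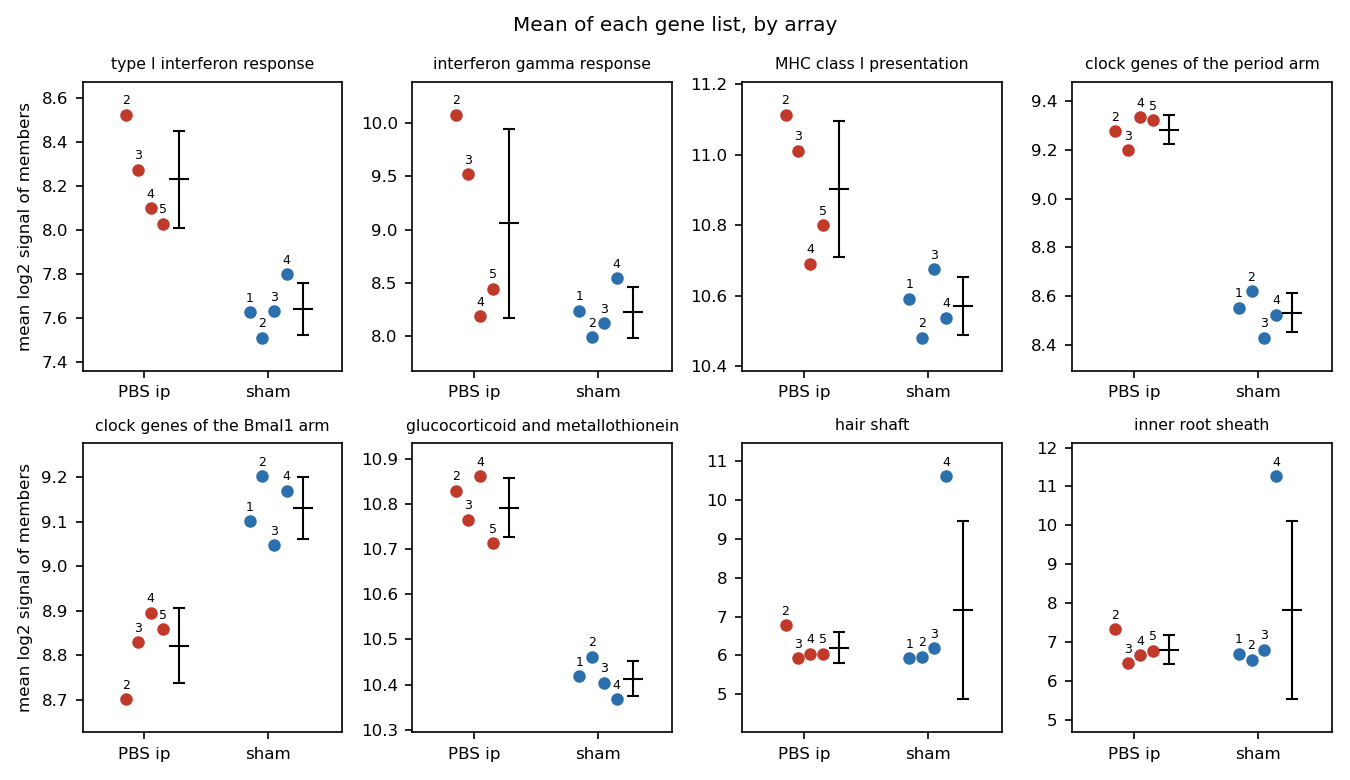
Mean log2 signal of the tested members of 8 gene lists (y axis) in each array, PBS ip (red) left of sham (blue), with replicate numbers. Bars are mean ± SD of 4 arrays. The type I interferon, both clock and glucocorticoid lists separate the groups. The MHC class I list does so narrowly, with the lowest PBS ip array at 10.69 and the highest sham array at 10.68. The interferon gamma list is high in PBS ip replicates 2 and 3 (10.08 and 9.52), and the hair shaft list is high in sham replicate 4 (10.60).

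T cell and cytotoxic genes showed small differences, none called. In whole skin, more cells of a type and more RNA per cell cannot be told apart. Of 14 tested T cell genes, 9 were positive, the median was 0.20, and 2 had an unadjusted p under 0.05, against 2.60% of all genes. The groups did not overlap for 2 members, Cd2 and Cd8b1, which differed by 0.26 ± 0.22 and 0.21 ± 0.19, against 2.40% of all genes. Cd8a, the coreceptor of cytotoxic T cells, had 7.84, 7.78, 7.39 and 7.56 in PBS ip arrays, against 7.49, 7.27, 7.45 and 6.74 in sham arrays. Sham replicate 4 was the lowest, and the groups overlapped. The difference was 0.40 ± 0.17 (95% interval 0.05 to 0.75, adjusted p = 0.869), and 0.24 without sham replicate 4. Its other 4 probe sets lay near background. Cd247, the zeta chain of the T cell receptor complex, differed by 0.27 ± 0.12 (adjusted p = 0.916), and Cd4, the coreceptor of helper T cells, by -0.06 ± 0.10. Without sham replicate 4 the median of the list was 0.10 and no member had an unadjusted p under 0.05.

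Among 13 cytotoxic genes the median was 0.22, and none had an unadjusted p under 0.05. Prf1, which encodes the pore protein perforin, had 7.56, 7.53, 7.47 and 7.42 in PBS ip arrays and 7.31, 7.08, 7.27 and 7.04 in sham arrays. The groups did not overlap, and the difference was 0.32 ± 0.18 (adjusted p = 1), with a second probe set at 0.13 ± 0.10. Nkg7, a gene of cytotoxic granules, differed by 0.47 ± 0.25, and the protease gene Gzmb by 0.26 ± 0.35. Ifng lay near background in every array, at 4.57 to 5.04 in PBS ip and 4.65 to 4.76 in sham. The 11 T cell chemokine and receptor genes had a median of 0.29. Within them Cxcr3, the receptor of Cxcl9 and Cxcl10, differed by 0.29 ± 0.17 without overlap, and Ccl5 was highest in PBS ip replicate 3 (8.67, against 6.73 to 7.11 in the other PBS ip arrays and 6.54 to 7.35 in sham). Cxcl11 differed by 0.26 ± 0.40.

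On the IL-15 pathway itself, Il15 differed by 0.16 ± 0.15 (95% interval -0.14 to 0.47) and its receptor chains Il15ra and Il2rb by 0.14 ± 0.10 and 0.22 ± 0.13, all with an adjusted p of 1. The 18 tested genes of common gamma chain cytokines and their Janus kinase signalling had a median of 0.15, and none had an unadjusted p under 0.05. Klrk1, the NKG2D receptor gene of cytotoxic cells, differed by 0.15 ± 0.22. The 20 macrophage genes had a median of 0.11, and 0.25 without sham replicate 4. Their complement gene C1qc differed by 0.42 ± 0.29, with 8.72 to 9.43 in PBS ip and 8.55 to 9.07 in sham. Of 3 tested B cell genes none had an unadjusted p under 0.05, and the B cell marker Cd79a lay near background in 7 of the 8 arrays.

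Hair genes differed through a single array. The 17 tested hair shaft genes, keratins and keratin-associated proteins of the growing hair, all had negative differences, with a median of -1.07. Their mean was 6.78, 5.93, 6.05 and 6.04 in PBS ip arrays, against 5.92, 5.96, 6.19 and 10.60 in sham arrays. Only sham replicate 4 was high, and within PBS ip replicate 2 was the highest. Without sham replicate 4 the median was 0.16 and 13 of 17 members were positive. Krt31 had 6.39, 5.99, 6.07 and 5.90 in PBS ip arrays and 6.17, 6.11, 6.19 and 10.71 in sham arrays. Its difference was -1.21 ± 0.96 (adjusted p = 1) with sham replicate 4 and -0.07 without it.

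The 9 inner root sheath genes followed the same array. Their median was -1.13, and 0.13 without sham replicate 4. Krt71, a keratin of the inner root sheath, had 7.11, 6.78, 7.11 and 6.85 in PBS ip arrays, against 6.77, 6.71, 6.83 and 11.65 in sham arrays. Other lists moved with that array as well. Without it the median of the dermal matrix list was 0.02, where it was -0.18 with all arrays. The melanocyte list had medians of 0.04 without and -0.16 with the array, the mast cell list -0.02 and -0.20, and the cell division list -0.09 and -0.21. No member of these 6 lists had an unadjusted p under 0.05, with or without the array. Of 11 tested bulge and resting follicle genes, 9 were positive, with a median of 0.08. Lgr5, which marks follicle stem cells, went the other way. It differed by -0.59 ± 0.21 without overlap (adjusted p = 0.685), and by -0.44 without sham replicate 4. Lgr5 was the 1 member lower without overlap, and 1 member was higher without overlap, against 1.80% and 2.40% of all genes.

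**Figure D5:**
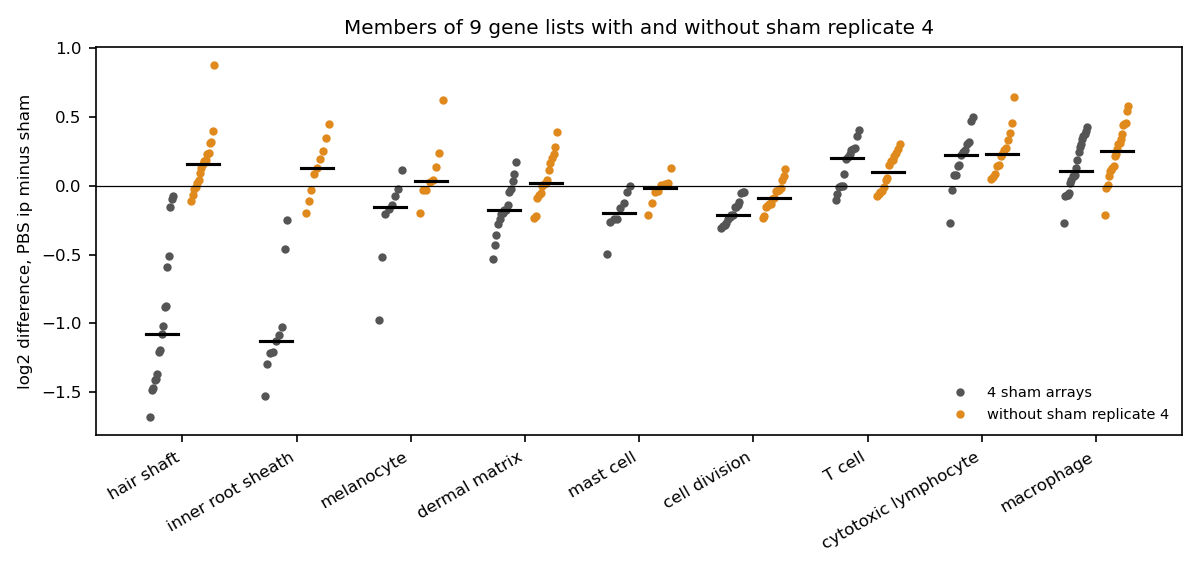
Log2 difference, PBS ip minus sham (y axis), of each tested member of 9 gene lists (x axis), with all 4 sham arrays (grey) and without sham replicate 4 (orange). Black lines are medians. The hair shaft and inner root sheath medians go to 0.16 and 0.13 without that array, where they are -1.07 and -1.13 with it.

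Genes known to respond to glucocorticoids, with the metallothioneins, also lay mostly higher in PBS ip skin, and none was called. Of 10 tested, 9 were positive, with a median of 0.41, 2 had an unadjusted p under 0.05, and 5 were higher without overlap, against 2.60% and 2.40% of all genes. Cdkn1a, a cell cycle inhibitor, was lower without overlap, at -0.14. Fkbp5, a cochaperone of the glucocorticoid receptor, had 10.16, 9.77, 10.27 and 9.94 in PBS ip arrays, against 9.20, 9.17, 8.99 and 9.24 in sham arrays. The difference of 0.88 ± 0.28 did not pass (adjusted p = 0.549), but was called with the 8 arrays alone (adjusted p = 0.0496). The transcription factor gene Klf9 differed by 0.49 ± 0.21 and Tsc22d3, which encodes the glucocorticoid-induced leucine zipper, by 0.72 ± 0.38, both without overlap.

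The remaining genes of largest difference came from several processes, and none passed. Il22ra2, which encodes a soluble protein that binds interleukin-22, had 10.32, 10.02, 10.70 and 10.33 in PBS ip arrays, against 9.03, 9.11, 9.25 and 8.40 in sham arrays. It differed by 1.40 ± 0.44 (adjusted p = 0.56), and by 1.21 without sham replicate 4. Fam107a, an actin-associated gene known to respond to stress, differed by 1.37 ± 0.38, Plac8 by 1.29 ± 0.39 and the monocyte chemokine gene Ccl12 by 1.21 ± 0.41. For all 4 the PBS ip arrays were above the sham arrays, which was a condition for naming them. Il22ra2 and Plac8 were among the 20 genes called with the 8 arrays alone.

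On the lower side, Klb, a coreceptor for fibroblast growth factors, had 6.09, 6.62, 5.85 and 6.02 in PBS ip arrays and 6.74, 6.75, 7.14 and 7.91 in sham arrays. The difference was -0.99 ± 0.23 (adjusted p = 0.221), and -0.73 without sham replicate 4, the highest array. Rspo1, a secreted enhancer of Wnt signalling, differed by -0.90 ± 0.23 (adjusted p = 0.334). The others were the secreted phospholipase gene Pla2g2d at -0.87 ± 0.27, the protein kinase A anchor Akap12 at -0.83 ± 0.23, the ectonucleotidase Enpp3 at -0.83 ± 0.21 and the ubiquitin ligase adaptor Klhl13 at -0.77 ± 0.24. Arhgap20, a GTPase-activating gene, differed by -0.75 ± 0.21, the poly(A) polymerase gene Tent5c by -0.72 ± 0.22, the integrin gene Itga8 by -0.70 ± 0.17 and the chromatin remodeller Smarca1 by -0.69 ± 0.20. That every PBS ip array lay below every sham array was a condition for naming these 10 genes, and is no separate result. For Tent5c the difference was -0.48 without sham replicate 4.

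The 3 il15rb arrays of week 5 give the level of the same genes in mice of a treated group. Their treatment label reads IL15, but il15rb names an antibody against IL-15 receptor beta, an inhibitor of the IL-15 pathway. The label thus does not mean that IL-15 was given. Per2 was 7.51, 7.65 and 7.97 in il15rb arrays, above all sham arrays. Leo1 was 8.08, 8.13 and 8.24 there, below all sham arrays, and Dbp was 11.66, 11.93 and 11.86, above all of them. Iigp1 was 7.62, 8.51 and 7.61 and Ifit1 was 5.95, 6.10 and 6.50 in il15rb arrays. For both, the il15rb arrays lay below all PBS ip arrays, and for Iigp1 also below all sham arrays. No test was made of these values.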

How the data were processed

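Skin RNA of 8 arrays was compared, 4 PBS ip and 4 sham of week 5, grouped by title and treatment label. The deposited values are log2 signals of 45101 probe sets, made by the authors with RMA per the submitters' processing notes, with no version given. RNA was labelled with the Affymetrix 3' IVT Express kit per the labels' protocols. Whether all arrays were normalized together is not given in the sources used here. No value column was left unused.

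Probe sets with a single gene symbol numbered 34958, with several 932 and with none 9211, and symbols were updated by Entrez identifier for 34754. Each gene took its probe set of highest mean over 47 arrays, and 9012 of 18194 genes had several. A gene was tested if it exceeded the table median of 6.70 on 3 or more arrays, which left 13648. Limma 3.58.1 in R 4.3.3 fitted a mean per group over 47 arrays, with Benjamini-Hochberg adjustment at 0.05. Signals below 5.43, the highest 25th percentile of the 8 arrays, are called near background. Some symbols were matched through synonyms, and list members without a probe set of their own, among them Isg15, were not analysed here. A planned motif and a panel gene are not reported here.

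Members and lists were chosen with earlier results of these data known. Genes were named if called, if among the 12 highest or 12 lowest differences without overlap at an unadjusted p under 0.01 (118 genes qualified), if among up to 4 members of smallest p in a list, or if on a panel of IL-15, interferon and T cell genes or in the Cd7, PAF1 or clock lists. Other genes were named after their values were seen. Arrays of equal number did not deviate together (correlations of -0.0471, -0.0588 and -0.0875), so nothing was paired. The series text speaks of biological replicates without naming separate mice, so p-values reflect array-to-array spread only. The number of arrays limits the precision. The fit was tested on simulated data. Alternatives covered the arrays in the fit, normalization, filter, probe sets, array weights, a replicate block, the array of conflicting labels and leaving out each array.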

Additional observations from a re-analysis of the deposited data

Results flagged for a closer look

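In 4 of 20 sets of 4 arrays that were checked, the gap between an extreme array and its nearest neighbour, as a share of the range, exceeded Dixon's 95% critical value, and chance exceeds it for about 1 set in 20. The hair shaft mean gave 0.864 in PBS ip, with replicate 2 high at 6.78 and the others at 5.93 to 6.05, and 0.943 in sham, with replicate 4 high. Leo1 gave 0.877 in sham, with replicate 1 low at 8.45 and the others at 8.64 to 8.67. Sectm1a gave 0.869 in PBS ip, with replicate 5 high at 9.05 and the others at 8.81 to 8.84.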

How the results depend on the processing

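The count of 4 became 17 with the 11 arrays of week 5, of which 1 was among the 4 (Per2), and 20 with the 8 arrays, of which 3 were (all but Leo1). It was 2 without a filter, 0 with quantile normalization between arrays (620 genes at an unadjusted p under 0.05) and 129 with array weights, which weighted PBS ip replicate 2 at 0.466 and sham replicate 4 at 0.658. With the replicate block no gene was called by limma (649 at an unadjusted p under 0.05). Leaving out an array gave 0 to 3 calls. By array, PBS ip replicate 2 gave 1, replicate 3 gave 3, and replicates 4 and 5 gave 0. Sham replicates 1 and 4 gave 2 each, replicate 2 gave 1 and replicate 3 gave 0. With PBS ip replicates 2 and 3 left out together, chosen after seeing the data, the count was 0. Each array minus its median, the stricter filter, the mean of probe sets, moderation with trend, every probe set alone, and the conflicting array in PBS ip gave 3 to 5. Of the 4 genes, the mean of probe sets kept 2, Leo1 and Sectm1a, and thus not Per2. Every probe set alone kept 2, Leo1 and Per2, and the conflicting array in PBS ip kept 3, all but Sectm1a.

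The period arm median was 0.58 with quantile normalization, 0.529 with the mean of probe sets and 0.518 with every probe set, and the Bmal1 arm median was 0.0664 with every probe set. Without PBS ip replicates 2 and 3 the interferon gamma median was 0.147 and the MHC class I median 0.177. The interferon gamma median was 0.454 with array weights and 0.496 with the conflicting array in PBS ip, the MHC class I median 0.196 with every probe set, and the hair shaft median -0.154 with the stricter filter. Over single arrays left out, medians ranged from 0.40 to 1.07 (interferon gamma), 0.44 to 0.55 (type I), 0.27 to 0.40 (MHC class I), -1.58 to 0.156 (hair shaft), 0.70 to 0.77 (period arm) and -0.37 to -0.27 (Bmal1 arm). The causes were not tested.

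Among the 95 genes of the naming rule, signs turned for 10. Some values listed here kept the sign of the main fit: -0.0402 for Rtf1, 0.083 for Bhlhe41, 0.148 for Ifng and 0.103 for Ctr9. Rtf1 was 0.00157 with quantile normalization, 0.0133 with arrays minus their median, 0.0158 with the conflicting array in PBS ip, 0.0448, -0.0402 and 0.00348 without PBS ip replicates 2, 3 and 4, 0.000193 without sham replicate 4, 0.0311 with array weights and 0.0141 without PBS ip replicates 2 and 3. Bhlhe41 was -0.0475 without PBS ip replicate 2, -0.0194, 0.083 and -0.035 without sham replicates 2, 3 and 4, -0.057 with array weights and -0.0709 without PBS ip replicates 2 and 3. Cd4 was 0.0206 with the mean of probe sets. Cd3g was -0.0183 and Cd7 -0.0505 with the conflicting array in PBS ip. Ifng was -0.00861 and 0.148 without PBS ip replicates 3 and 4, and -0.0862 without replicates 2 and 3. Ctr9 was 0.103 and -0.0493 without PBS ip replicates 2 and 3, -0.00432 without sham replicate 1 and -0.0117 with the replicate block. Over single arrays left out Krt26 ranged from -1.54 to 0.0825, Krt71 from -1.46 to 0.193 and Krt73 from -1.70 to 0.13, positive without sham replicate 4.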

Other observations

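The array titled PBS ip week 5 replicate 1 with the treatment label IL15 was placed in no group. Its mean of the period arm was 9.35, where PBS ip arrays had 9.20 to 9.33 and sham arrays 8.43 to 8.62. Per2 was 7.88 and Leo1 8.18 in it, both within the ranges of PBS ip and of the il15rb arrays of week 5. Sectm1a was 8.46, between the PBS ip and sham ranges and within that of il15rb. Dbp was 11.74, Iigp1 7.95 and Ifit1 6.10, each within the il15rb range and below all PBS ip arrays. Which label is right was not tested. In this array the mean of glucocorticoid genes was 11.20, above the 10.71 to 10.86 of PBS ip and the 10.37 to 10.46 of sham. Its interferon gamma mean was 7.62, its type I interferon mean 7.41 and its cytotoxic mean 5.86, each below all PBS ip and all sham arrays.

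Lyve1, a gene of lymphatic endothelium and of some macrophages, had 8.32, 10.14, 9.89 and 10.25 in PBS ip arrays and 8.04, 8.11, 8.38 and 8.79 in sham arrays, a difference of 1.32 ± 0.54 (adjusted p = 0.863). Only PBS ip replicate 2 lay within the sham range. The other 8 endothelial genes differed by -0.35 to -0.05. Krt6a, a keratin of injured and follicular epidermis, differed by 0.70 without overlap (unadjusted p = 0.083), while its neighbours in the injury list, Krt16 and Krt17, differed by -0.08 and 0.04. Of the 13 tested members of that list 6 were positive and 7 negative, with a median of -0.075. None had an unadjusted p under 0.05. Krt6a was the highest of them and the only 1 without overlap, against 2.40% of all genes.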
